A study of Mus musculus with 6 samples.

Results

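The genes described here are Nwd1, Fmnl2, Rere, Arhgap32, Prdm2, Fndc3a, Ppm1e, Gfra2 and Paqr5, 9 of 23574 gene features counted in mouse haematopoietic stem cells. They were chosen by their read counts, because each was lower in the 3 libraries from Hlf knockout cells than in the 3 from wild-type littermates and because none belongs to a blood lineage programme. The fall itself is therefore a description, given without a test, and it supports nothing further. Hlf, hepatic leukaemia factor, belongs to the PAR bZIP transcription factors. The study asked how stem cells that lack it differ from those of littermates. Each library was made from 3000 C57BL/6 cells that lacked lineage markers, CD34 and Flt3 and carried Sca-1 and c-Kit, freshly sorted, so both genotypes share strain and gate. The sources used here do not give the age and sex of the mice or the part of Hlf that was removed. They do not say whether each library came from its own animal, and p-values measure only the spread among these libraries, which may be technical.

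As background, 3 of these genes act on the actin skeleton and on small GTPases, the molecular switches that set cell shape, adhesion and movement. Fmnl2 is a formin, which nucleates and elongates actin filaments downstream of the GTPase Cdc42. Arhgap32 (also p250GAP) switches such GTPases off, and Ppm1e (also POPX1) is a phosphatase that removes activating phosphates from PAK kinases, which Cdc42 and Rac1 switch on, and from calmodulin-dependent kinases. Rere and Prdm2 work in the nucleus. Rere is an atrophin-type co-regulator of nuclear receptors that recruits histone deacetylases, and Prdm2 (also Riz) is a PR domain zinc finger protein linked to methylation of histone H3. Gfra2 is the co-receptor for the nerve growth factor neurturin, and Paqr5 is a membrane progestin receptor. Nwd1 carries a NACHT nucleotide-binding domain and WD repeats and has been linked to androgen receptor levels in human prostate cells, and Fndc3a is a fibronectin type III domain protein that mice need for spermatid adhesion.

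The promoters of these genes did not share one base composition, and the window richest in CpG is shown beside one at the median of all genes for that reason. RefSeq promoter windows of assembly GRCm38.p6, reaching from 250 bases before to 50 bases after the annotated start, were on hand for 6 of the 9 genes, in 8 windows of 300 bases because Arhgap32 had 3. Prdm2, Fndc3a and Gfra2 had none. Capitals mark CpG dinucleotides, of which the Fmnl2 window (chr2:52857618-52857917, plus strand) held 49, more than 99.0% of all 32851 windows, and the Nwd1 window (chr8:72646461-72646760, plus strand) held 7, the median of all windows.
Fmnl2: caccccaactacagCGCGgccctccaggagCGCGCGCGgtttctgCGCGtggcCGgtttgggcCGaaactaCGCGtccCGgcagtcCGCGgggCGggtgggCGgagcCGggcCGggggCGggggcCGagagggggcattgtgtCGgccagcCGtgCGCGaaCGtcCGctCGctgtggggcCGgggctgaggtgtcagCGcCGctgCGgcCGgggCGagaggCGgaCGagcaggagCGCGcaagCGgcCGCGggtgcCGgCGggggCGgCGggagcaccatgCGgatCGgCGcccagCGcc
Nwd1: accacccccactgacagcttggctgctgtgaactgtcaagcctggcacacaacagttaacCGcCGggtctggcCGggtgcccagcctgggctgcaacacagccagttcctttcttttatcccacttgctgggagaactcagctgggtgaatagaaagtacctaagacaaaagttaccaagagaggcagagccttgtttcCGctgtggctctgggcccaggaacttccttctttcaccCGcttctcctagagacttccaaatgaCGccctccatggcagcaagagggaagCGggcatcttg
The GC share was 78.7% in the Fmnl2 window and 55.7% in the Nwd1 window. Ppm1e had 36 CpG, Rere 24 and Paqr5 21, while the 3 Arhgap32 windows held 3, 38 and 2. The letters bound by PAR bZIP factors, TTACGTAA or TTATGTAA on either strand, were in 0 of the 8 windows and in 1.06% of all windows. The cyclic AMP response element TGACGTCA (1.79% of all windows), the AP-1 letters TGACTCA (5.20%) and the C/EBP letters TTGCGCAA (0.183%) were also in 0 of the 8. The GC box GGGCGG, which overlaps none of the other motifs, was in 4 of the 8, in Arhgap32, Fmnl2, Paqr5 and Ppm1e, and in 35.7% of all windows. A missing match says only that these letters are not in these windows.

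The libraries held 10182464 to 11998296 counts in knockout cells and 8346335 to 9902102 in wild-type cells, so each knockout library was deeper than each wild-type one. Levels are in CPM, read counts scaled to library size with TMM factors, and the mean is given with its SD over 3 libraries per genotype. Hlf itself stood at 28.3, 37.6 and 37.3 CPM in knockout libraries, against 1370.0, 1662 and 1114 CPM in wild-type libraries. Of 20 stem cell markers, 15 had counts high enough to test, 7 with positive and 8 with negative values and 0 called by edgeR or DESeq2. At an unadjusted edgeR p under 0.05, 0 were higher and 4 lower, Procr (log2 fold change -1.69), Robo4 (-1.07), Fgd5 (-1.02) and Mecom (-0.83). Over all tested genes, 2.63% were higher and 4.65% lower at that threshold. The summed level of the list was 1296 to 1720.0 CPM in knockout and 1545 to 1816 CPM in wild type, and the part of these markers in the differences was not tested. The sort genes Kit and Ly6a (Sca-1) had 1 and 0 counts in all, but they have 2 and 6 listed transcripts. The median count summed over the libraries was 3 for genes with 2 or more listed transcripts and 79 for genes with 1, so low counts of such genes are not read as low expression. Arhgap32 and Prdm2 have 2 listed transcripts each, the other 7 have 1, and values of the pair may not stand for the whole gene. In bulk RNA, fewer cells that carry a transcript and less transcript per cell cannot be told apart.

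All 9 genes passed the filter on low counts, 6 of them with at least 10 counts in every library. Arhgap32, Gfra2 and Paqr5 had fewer than 10 counts in at least 1 knockout library and passed through their wild-type libraries. In all 9, every knockout library lay below every wild-type library, which held for 6.85% of the 10204 tested genes. By edgeR's quasi-likelihood test, 0 of the 9 had an adjusted p under 0.05, and 0.0098% of tested genes did (1 gene, Hlf). Without the filter on low counts edgeR called Nwd1 and Prdm2, 2 of the 9, and 0.0614% of 14669 genes. DESeq2 called all 9, and 1.18% of the 10204 genes, counting genes it gave no adjusted p as not called. Whether these genes pass therefore depends on the tool and the filter. Since the contrast chose the genes, nothing further is read from these counts. The median log2 fold change was -2.43 over the 9 genes and -0.05 over all tested genes.

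**Figure D1:**
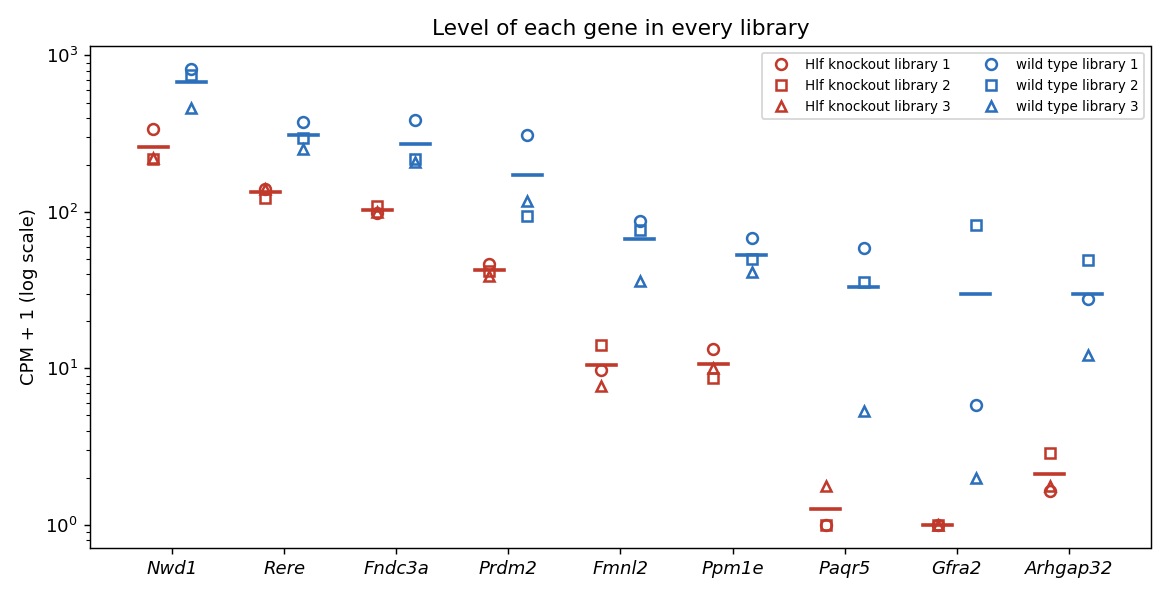
CPM plus 1 (log axis) of each gene in the 3 Hlf knockout libraries (red, left) and the 3 wild-type libraries (blue, right), with horizontal bars at the means and symbols that mark the library number. In each gene the red points lie below the blue ones, and the triangle of wild-type library 3 is the lowest blue point except in Prdm2.

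Among the actin and GTPase genes, Fmnl2 stood at 8.78, 13.2 and 6.75 CPM in knockout libraries 1, 2 and 3, against 86.5, 76.0 and 35.1 CPM in wild-type libraries 1, 2 and 3. The genotypes did not overlap, and the lowest wild-type library was 2.66 times the highest knockout library. The means were 9.57 ± 3.29 CPM in knockout and 65.9 ± 27.15 CPM in wild type (SD, n = 3 each), with 14.5% of the wild-type level left and a log2 fold change of -2.78 (SE 0.57). Fmnl2 drives filopodia and lamellipodia in migrating cells.

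Arhgap32 had 7, 20 and 9 counts in knockout libraries, against 210, 465 and 101 counts in wild-type libraries. In CPM these were 0.640, 1.88 and 0.779 in knockout and 26.7, 48.4 and 11.2 in wild type. Wild-type library 2 was the highest and library 3 the lowest, and all knockout libraries were near 0. The log2 fold change was -4.69 (SE 0.99). From the summed counts, 36 in knockout and 776 in wild type, the gene was 26.9-fold lower in knockout (95% interval 19.3 to 38.7, for counting error alone). Its 2 transcripts fell unevenly across libraries. The more abundant transcript carried all of the knockout counts, while the other had 0 counts in each knockout library and 71, 0 and 7 counts in wild-type libraries 1, 2 and 3.

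Ppm1e stood at 12.3, 7.72 and 9.09 CPM in knockout libraries, against 67.4, 48.9 and 40.1 CPM in wild-type libraries. The knockout libraries differed by 1.59-fold at most and the wild-type libraries by 1.68-fold, and the gap between genotypes was 3.27-fold at its narrowest. The means were 9.69 ± 2.33 CPM in knockout and 52.1 ± 13.95 CPM in wild type (SD, n = 3 each), with a log2 fold change of -2.43 (SE 0.56).

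Ppm1e lies on chromosome 11, as Hlf does. In the gene order of assembly GRCm38.p6, 73 genes lie between them, 34 of them protein-coding. Of these, 22 were tested, 11 with positive and 11 with negative values and a median log2 fold change of -0.07, against -0.05 over all tested genes. By edgeR 0 passed, and by DESeq2 0 passed. At an unadjusted p under 0.05 by edgeR, 1 was higher and 0 were lower, against 2.63% and 4.65% of all tested genes. The higher one, Rad51c, a recombination factor, stood at 9.51, 12.7 and 25.2 CPM in knockout libraries and at 3.44, 0 and 1.77 CPM in wild-type libraries (log2 fold change 3.18, SE 1.43, edgeR adjusted p = 0.683). Pctp, a phosphatidylcholine transfer protein, was next at -1.22 (SE 0.63, edgeR adjusted p = 0.703). Scpep1, picked out after its values were seen, was the 1 gene of the 22 with every knockout library below every wild-type library. This held for 6.85% of all tested genes.

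Of the nuclear factors, Rere stood at 139, 122 and 139.9 CPM in knockout libraries, against 376.5, 297 and 252.5 CPM in wild-type libraries. The knockout libraries differed by 1.15-fold at most and the wild-type libraries by 1.49-fold, and the genotypes were 1.81-fold apart at the nearest. The means were 133.6 ± 10.1 CPM in knockout and 308.7 ± 62.8 CPM in wild type (SD, n = 3 each), a log2 fold change of -1.21 (SE 0.25) and the smallest of the 9.

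Prdm2 stood at 45.2, 41.2 and 38.2 CPM in knockout libraries, against 307.3, 93.5 and 116.0 CPM in wild-type libraries. The knockout libraries were within 1.18-fold of each other, while wild-type library 1 was 3.29 times library 2. The log2 fold change was -2.05 (SE 0.45), and -1.32 without wild-type library 1. Its 2 listed transcripts went opposite ways. The more abundant transcript had 434, 304 and 424 counts in knockout libraries and 2371, 899 and 1040 counts in wild-type libraries. The other transcript had 60, 133 and 17 counts in knockout libraries and 44, 0 and 7 counts in wild-type libraries, a mean of 6.50 CPM in knockout and 2.13 CPM in wild type with overlapping libraries. The sources used here do not say how reads shared by both transcripts were counted, and this split was not tested.

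Both receptors were almost or wholly undetected in knockout cells and uneven in wild-type cells. Gfra2 had 0, 0 and 0 counts in knockout libraries, against 38, 780 and 9 counts in wild-type libraries. Wild-type library 2 held nearly all of them (81.1 CPM), with 4.84 CPM in library 1 and 0.997 CPM in library 3. A count of 0 allows up to 3 counts over the 3 knockout libraries together (0.0906 CPM), so Gfra2 was at least 344-fold lower in knockout. This bound covers counting error alone and leaves out the spread among the wild-type libraries. Without wild-type library 2 the bound was at least 30.7-fold lower.

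Paqr5 had 0, 0 and 9 counts in knockout libraries, against 451, 335 and 39 counts in wild-type libraries. In CPM these were 0, 0 and 0.779 in knockout and 57.4, 34.8 and 4.32 in wild type, so the 9 counts of knockout library 3 stood 5.55-fold below wild-type library 3. From the summed counts, 9 in knockout and 825 in wild type, the gene was 114.5-fold lower in knockout (95% interval 60.02 to 251, for counting error alone). The ratio was 73.8 without wild-type library 1 and 106.7 without wild-type library 2. Without knockout library 3, knockout had 0 counts, and the gene was at least 224-fold lower by the same floor of 3 counts over the group.

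Nwd1, whose WD repeats form a protein-binding platform, stood at 337, 217 and 219 CPM in knockout libraries, against 820.7, 750.7 and 460.2 CPM in wild-type libraries. Knockout library 1 came nearest to wild-type library 3, at a ratio of 1.37, the narrowest gap among the 9. The means were 257.7 ± 68.7 CPM in knockout and 677 ± 191 CPM in wild type (SD, n = 3 each), with a log2 fold change of -1.39 (SE 0.27).

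Fndc3a stood at 98.1, 107.6 and 98.2 CPM in knockout libraries, against 384, 216 and 207 CPM in wild-type libraries. The knockout libraries were within 1.10-fold of each other, and wild-type library 1 stood above the other wild-type libraries. The log2 fold change was -1.41 (SE 0.30), and -1.05 without wild-type library 1. Of the 9, Fndc3a alone has exons that another gene overlaps in the GENCODE vM21 annotation, the antisense gene Gm16549, and since the use of strand is not given, reads of both could not be separated.

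**Figure D2:**
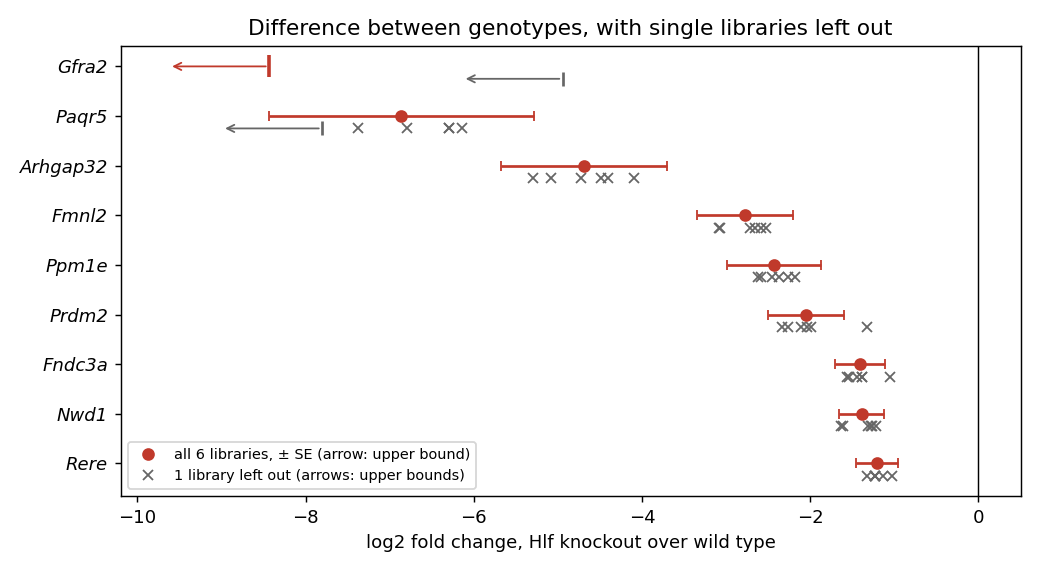
Log2 fold change of knockout over wild type for each gene with all 6 libraries (red, bars show ± SE) and with 1 library left out at a time (grey crosses). Arrows start at upper bounds where knockout has 0 counts, for Gfra2 with all libraries (-8.43) and without wild-type library 2 (-4.94), and for Paqr5 without knockout library 3 (-7.80).

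Levels between genes were compared per kilobase of the listed transcript with the most counts. In knockout the order was Nwd1 (23.9 CPM per kilobase), Rere (17.3), Fndc3a (16.5), Prdm2 (5.68), Fmnl2 (1.75) and Ppm1e (1.53), with Arhgap32 (0.0812), Paqr5 (0.0728) and Gfra2 (0) at the bottom. In wild type it was Nwd1 (62.75), Fndc3a (43.8), Rere (39.9), Prdm2 (23.6), Fmnl2 (12.1), Paqr5 (9.02), Gfra2 (8.35), Ppm1e (8.22) and Arhgap32 (2.12). In wild type, Nwd1 lay above 88.9% of tested genes of known length on this scale, Fmnl2 above 47.7% and Arhgap32 above 15.1%. Arhgap32 and Prdm2 have 2 listed transcripts each, so their places are not read as the expression of the whole gene. The place of Gfra2 rests on wild-type library 2: without it, Gfra2 had 0.840 CPM per kilobase, below Arhgap32 (1.397 without that library) and last of the 9. Neighbours such as Fndc3a and Rere, or Paqr5, Gfra2 and Ppm1e, differed by less than the spread of their wild-type libraries.

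The wild-type libraries were not alike in these genes. Their order is a description, because the choice used the wild-type values. Wild-type library 3 was the lowest of the wild type for 8 of the 9 genes, all but Prdm2, and wild-type library 1 was the highest for 7, all but Arhgap32 and Gfra2. Over all tested genes, library 3 was the lowest for 27.8% and library 1 the highest for 34.6%. Among the 699 genes with every knockout library below every wild-type library, these shares were 49.1% and 48.2%. The mean of the 9 genes' standardised log2 CPM was -0.787, -0.851 and -0.870 in knockout libraries 1, 2 and 3, against 1.21, 0.946 and 0.357 in wild-type libraries 1, 2 and 3. The number of features with at least 1 count ran the other way in the wild type, with 12207, 12097 and 12133 in knockout libraries and 10796, 11341 and 12331 in wild-type libraries 1, 2 and 3. Its part in the differences was not tested.

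Markers of other cells were also read in each library. Summed over 13 granulocyte-monocyte genes, knockout libraries held 328 to 490.4 CPM and wild-type libraries 633.6 to 3416 CPM, the highest in wild-type library 3, where 8 of the 9 genes were lowest. All 8 tested genes of that list had negative values. At an unadjusted edgeR p under 0.05, 4 were lower, against 4.65% of all tested genes. By edgeR 0 were called and by DESeq2 1, the protease gene Prtn3, against 1.18% of all tested genes by DESeq2. In wild-type libraries 1 and 2, Mpo, Elane, Ctsg and Csf1r lay below their knockout means, and only library 3 lay above. Mpo stood at 36.5, 45.6 and 1372 CPM in wild-type libraries 1, 2 and 3. Prtn3 was higher in every wild-type library (70.7 to 367 CPM) than in any knockout library (2.29 to 11.3 CPM). S100a9, with 2 listed transcripts, was at 0 counts. The 10 B-cell genes summed to 34.0 to 53.5 CPM in knockout and 83.6 to 163 CPM in wild type, and 4 of 4 tested were negative. By edgeR 0 were called and by DESeq2 1, Vpreb1 of the pre-B-cell receptor, beside the same 1.18% of all tested genes. The 12 macrophage and dendritic cell genes in the files summed to 69.0 to 162 CPM in knockout and 133 to 180 CPM in wild type, with 5 of 8 tested negative and Marco at 0. The 13 endothelial and stromal genes summed to 50.8 to 89.3 CPM in knockout and 55.1 to 224 CPM in wild type, with 7 of 8 tested negative and Pdgfra and Pdgfrb at 0. Of 17 neuron and glia genes 2 were tested and 8 were at 0 counts throughout. Of those 8, Rbfox3, Map2 and Syt1 have several listed transcripts, so their 0 is not read as absence, and Snap25, Stmn2, Nefm, Aqp4 and Mog have 1. The summed level of that list, mostly from Mbp, was 119 to 165.5 CPM in knockout and 103 to 179 CPM in wild type. The part of these cells in the differences was not tested.

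Most of the genes also had long transcripts. The choice did not use length, but it used differences in read counts, which moved with length across all tested genes. Length and choice are therefore not independent. The median length was 6344 bases for the 9 genes and 2881 bases for the 10027 tested genes of known length (98.3% of those tested). Arhgap32, at 13568 bases, was longer than 99.4% of tested genes, Nwd1, at 10792, than 98.4%, and Rere, at 7728, than 94.6%. Prdm2 (7304 bases), Ppm1e (6344), Fndc3a (6143) and Fmnl2 (5461) were longer than 93.4%, 89.7%, 88.8% and 84.7%, so 7 of the 9 were above 80%. The receptors Paqr5 (3566 bases, 63.0%) and Gfra2 (3472 bases, 61.4%) were nearer to the middle. The 690 other genes with every knockout library below every wild-type library had a median length of 3459 bases, and genes with every knockout library above every wild-type library had 2636.

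Across all tested genes the difference between genotypes moved with transcript length. The median log2 fold change was 0.08 for 767 genes of up to 1000 bases, -0.06 for 1725 genes of 3000 to 4000 bases and -0.22 for 473 genes over 8000 bases. Every knockout library lay below every wild-type library for 4.8% of genes in the shortest class and 12.3% in the longest, and above every wild-type library for 9.9% in the shortest and 5.3% in the longest. The gap between the medians of the longest and shortest classes was -0.30 with all libraries and -0.39 to -0.21 with any 1 library left out. Per library, the longest class stood above the shortest by -0.03, -0.16 and -0.33 log2 units in knockout libraries 1, 2 and 3, against 0.41, 0.11 and -0.02 in wild-type libraries 1, 2 and 3, so knockout library 1 and wild-type library 3 were nearly alike. The wild-type libraries ranked as they did in the mean of the 9 genes. The part of transcript length in the values of the 9 genes was not tested.

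**Figure D3:**
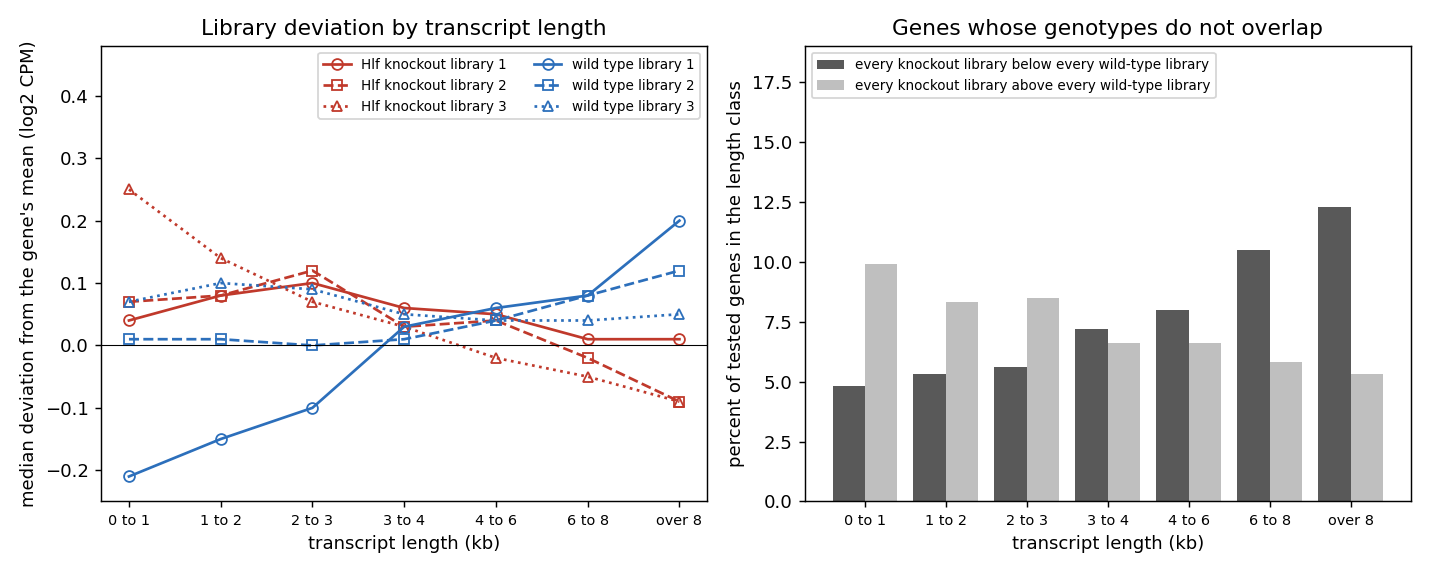
Left, the median deviation of each library from a gene's mean over all libraries (log2 CPM) against transcript length class, with red lines for Hlf knockout and blue for wild type. Right, the percent of tested genes in each class whose genotypes do not overlap, with lower values in knockout (dark) reaching 12.3% over 8 kb and higher ones (light) falling off to 5.3%.

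A list of non-coding RNAs, most of them held in the nucleus, was read in the same libraries. The list was not among the planned ones, and it holds Malat1, also among the genes most like the chosen genes in pattern. Its values are a description. Of 8 tested, 7 had negative values and the median log2 fold change was -0.81, against -0.05 over all tested genes. Malat1, which sits in nuclear speckles, stood at 4879, 4120.0 and 4816 CPM in knockout libraries, against 11450.0, 9378 and 7044 CPM in wild-type libraries (log2 fold change -1.01, SE 0.19, edgeR adjusted p = 0.371). Neat1, the scaffold of paraspeckles, stood at 133, 99.1 and 104 CPM in knockout libraries, against 260.6, 218 and 192 CPM in wild-type libraries (edgeR adjusted p = 0.466). Both were highest in wild-type library 1 and lowest of the wild type in library 3, as were Fmnl2, Nwd1, Rere, Fndc3a, Ppm1e and Paqr5. By edgeR 0 of the 8 passed, by DESeq2 3 did, and at an unadjusted edgeR p under 0.05 there were 3 lower ones. Over all tested genes DESeq2 called 1.18%, and 4.65% were lower at that edgeR threshold.

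The genes whose pattern over the 6 libraries was most like the mean standardised pattern of the 9 were Edem2 (Pearson's r = 0.996), Atp11a (0.989), Tnfsf4 (0.989), Malat1 (0.985) and Ubxn6 (0.982), out of 8455 genes compared. Edem2 acts in the disposal of misfolded glycoproteins, Atp11a is a phospholipid flippase, Tnfsf4 encodes OX40 ligand, and Ubxn6 is a cofactor of the p97 ATPase. The pattern contains the contrast that chose the 9 genes, and 45 genes reached an r of 0.95. Edem2 stood at 38.9, 37.2 and 38.0 CPM in knockout libraries and at 69.0, 65.6 and 57.4 CPM in wild-type libraries. Among these 5 genes the log2 fold changes ran from -1.94 (Tnfsf4) to -0.75 (Edem2), and 0 passed edgeR's test (adjusted p of 0.371 to 0.706).

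Relatives and partners of the 9 genes were tested as a comparison. They were not chosen for how they moved, but their lists were drawn up with earlier results of these data known. The 10 lists held 196 genes in the files, of which 112 were tested, 50 with positive and 62 with negative values and a median log2 fold change of -0.13. By edgeR 0 of them passed (smallest adjusted p = 0.466) and by DESeq2 0 passed, though DESeq2 gave some of them no adjusted p. At an unadjusted p under 0.05, 10 were lower and 3 higher, 8.93% and 2.68% of the relatives, against 4.65% and 2.63% of all tested genes. Every knockout library lay below every wild-type library for 7 of the 112 relatives, and for 6.85% of all tested genes.

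Among formins and their GTPases, 9 of 14 tested had positive values (median 0.10). The formin Diaph2 stood at 22.4 ± 3.66 CPM in knockout and 66.7 ± 22.3 CPM in wild type (SD, n = 3 each; log2 fold change -1.57, SE 0.47, edgeR adjusted p = 0.466). The GTPase Rac1 stood at 899 ± 20.4 CPM in knockout and 633 ± 81.7 CPM in wild type (log2 fold change 0.51, SE 0.19), and the actin-binding profilin Pfn1 had -0.20 (SE 0.20). Of 22 tested GTPase-activating proteins of the Arhgap32 list, 14 had negative values (median -0.20), led by Arhgap26 at -1.02 (SE 0.41) and Arhgap31 at -1.31 (SE 0.58). Arhgap23, of highest mean CPM among them, had -0.91 (SE 0.67). For Ppm1e, 10 of 14 tested PP2C phosphatases had positive values (median 0.14), with Ppm1d at 1.36 (SE 0.56), Ppm1f, its nearest relative, at -1.08 (SE 0.54) and Ppm1g at 0.54 (SE 0.28). Of the kinases and PIX partners that Ppm1e and its relatives act with, 8 of 11 tested had negative values (median -0.34). Prkaa2, a catalytic subunit of AMP-activated kinase, stood at 7.73 ± 1.86 CPM in knockout and 32.9 ± 25.2 CPM in wild type (SD, n = 3 each), Camk4 had a log2 fold change of 1.13 (SE 0.65) and the PAK partner Arhgef6 had -0.30 (SE 0.23).

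Among co-repressor partners of Rere, 9 of 15 tested had positive values (median 0.12). Rcor1 had 1.10 (SE 0.48), the deacetylase Hdac2 0.53 (SE 0.25) and Mta2, a subunit of a deacetylase complex, -0.42 (SE 0.24). Of 9 tested PR domain genes, 7 had negative values (median -0.83). Mecom, the PR domain factor that stem cells need, stood at 109.9 ± 38.3 CPM in knockout and 195 ± 26.7 CPM in wild type (SD, n = 3 each; log2 fold change -0.83, SE 0.31, edgeR adjusted p = 0.620), and Prdm4 had -1.23 (SE 0.50). Mecom has 2 listed transcripts. Of 9 tested NACHT and WD-repeat relatives of Nwd1, 7 had negative values (median -0.68). The inflammasome and antigen-presentation regulators Naip5 and Nlrc5 had -0.91 (SE 0.37) and -0.68 (SE 0.27), while Nwd2 had 0 counts in all libraries. Of 5 tested Fndc genes, 4 had negative values (median -0.97), with Fndc3b, the closest relative of Fndc3a, at 10.1 ± 3.83 CPM in knockout and 41.8 ± 39.85 CPM in wild type (SD, n = 3 each), and Fndc9 had 1.91 (SE 1.45).

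Most genes of the receptor system of Gfra2 had too few counts to test. Of its 16 listed genes 4 were tested, and 9 had 0 counts in all libraries. These included its ligand gene Nrtn, the signalling receptor Ret and the other co-receptors Gfra1, Gfra3 and Gfra4, of which Ret, Gfra1 and Gfra4 have several listed transcripts. So do Artn and Dok5, also at 0 counts, and a 0 in such genes is not read as absence. The adaptor Frs2 had a log2 fold change of 0.09 (SE 0.42), Shc1, with 2 listed transcripts, had 2.24 (SE 1.77) and Dok4 had -2.97 (SE 1.82). In the Paqr5 list, which also holds progesterone-binding proteins from outside its family, 4 of 9 tested had positive values (median 0). The adiponectin receptors Adipor1 and Adipor2 stood at -0.83 (SE 0.38) and -0.51 (SE 0.25).

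**Figure D4:**
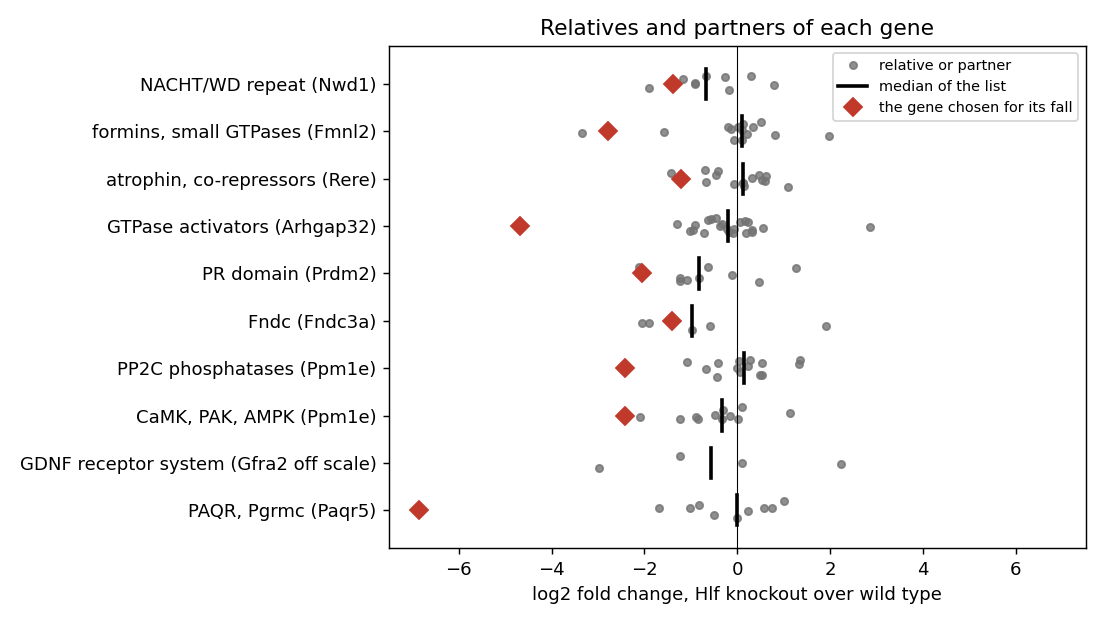
Log2 fold change of knockout over wild type for each tested relative or partner (grey points), the median of each list (black bar) and the chosen gene (red diamond; Gfra2 is not drawn, being at 0 in knockout). The 10 medians lie between -0.97 and 0.14; the diamonds were chosen on this contrast and are drawn as a description.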

How the data were processed

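RNA-seq of sorted haematopoietic stem cells from 3 Hlf knockout and 3 wild-type libraries was read from the read counts per RefSeq transcript that the authors deposited, whole numbers that are not normalised, for 30858 transcripts per library. Per the submitters' processing notes, TopHat and mouse build mm9 were used. The counting tool, annotation release, strand use and treatment of shared reads were not given in the sources used here. Transcripts were named from RefSeq of GRCm38.p6 (30363) or GENCODE vM21 (179), 316 kept their accession, and counts were summed to 23574 genes. Because the builds differ, coordinates are given only for the RefSeq promoter windows. Transcript lengths came from GENCODE vM21.

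Low genes were removed with filterByExpr of edgeR 4.0.16 (R 4.3.3; genotype as group, a count of at least 10 and a total of at least 15). Genotypes were then compared in all 6 libraries, without covariates, by edgeR's robust quasi-likelihood test on TMM-scaled libraries, with Benjamini-Hochberg adjustment over 10204 genes and a threshold of 0.05. DESeq2 1.42.0 and limma-voom (limma 3.58.1) were alternatives, as were other scalings, filters, thinned libraries, transcripts as features, a replicate block and leaving out each library. Genes to which DESeq2 gave no adjusted p are counted as not called by it. Log2 CPM used a prior count of 2. Floors are 3 counts over a group, and intervals are exact at 95%. Both cover counting error only. Each SE of a log2 fold change was back-calculated, as its absolute value over the square root of the F statistic of edgeR's test. The code was tested on simulated counts.

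The 9 genes, the lists of relatives and the marker lists were chosen with earlier results of these data known. Besides Hlf and the 9 genes, the text names in each list of relatives the 2 genes of smallest p and the 1 of highest mean CPM, the 5 genes most like the 9 in pattern (mean log2 CPM of at least 2), and the 2 genes of smallest p between Ppm1e and Hlf. Values outside this rule were named after they were seen. These are Neat1, the other markers named, Nwd2, Scpep1 and the GDNF-system genes at 0 counts. The length classes were chosen after the data were seen, and the list of non-coding RNAs was not among the planned lists.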

Additional observations from a re-analysis of the deposited data

How the results depend on the processing

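Each of the 134 values of the 9 genes under the 15 alternatives was below 0, and 5 moved by more than 1 SD between replicates. These were Fndc3a (-1.05) and Prdm2 (-1.32) without wild-type library 1, Gfra2 under limma-voom and without wild-type library 2, and Paqr5 without knockout library 3. The fitted values of the last pair rest on counts at or near 0, so their bounds are given above instead. The median of the 9 genes was -2.62 to -2.18 with a library left out and -2.24 in thinned libraries, where Gfra2 did not pass the filter. All 9 genes were called by DESeq2, 2 (Nwd1 and Prdm2) by edgeR without a filter on low counts, and 0 under the main settings and every other alternative with genes as features. The cause was not tested. The number of genes called was 1, and 120 by DESeq2, 9 without a filter on low counts and 1 to 3 with a library left out (3 without wild-type library 1, 2 without wild-type library 2). With the replicate block it was 2, and the median of the 9 genes was -2.42. Same-numbered libraries did not deviate together (r = -0.01, -0.022 and 0.02 for numbers 1, 2 and 3). With 3 libraries per genotype, these values cannot tell whether the numbers pair the libraries. No relative was called under any alternative (0 genes). The difference between long and short transcripts kept its sign under all alternatives run on it, from -0.39 to -0.21, and was -0.31 for genes with a mean of at least 20 CPM and -0.30 for genes with 1 listed transcript, both added after seeing the data.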
